A study of Homo sapiens with 2 samples.

Results

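The miRNAs with numbers from 4632 to 4804 were examined in exosomal RNA. The exosomes came from FaDu, a human line of squamous carcinoma cells of the hypopharynx. The members were taken by name alone, as every miRNA of the array whose number after the prefix hsa-miR- lay in that range, and 280 of the 2549 miRNAs on the array met this rule. Of these, 105 were 5p arms, 105 were 3p arms of the same hairpins, and 70 had a name without an arm.

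The study asked how HOTTIP, a long noncoding RNA of the HOXA locus, acts in head and neck cancer, and used a miRNA chip to look for miRNAs that differ in exosomes when it is overexpressed. The chip had 1 array labelled oe-NC, from exosomes of FaDu cells that received a control plasmid, and 1 array labelled oe-HOTTIP, from exosomes of FaDu cells that received a HOTTIP plasmid. They are called the oe-NC array and the oe-HOTTIP array after these labels. The labels call both vectors plasmid lentivirus, whereas the methods describe pcDNA3.1 plasmids delivered by lipofection, and exosome isolation is described for macrophages only. Each array was a single-colour Agilent miRNA array hybridized with 200 ng of RNA, and both arrays lay on the same slide and were scanned together. With 1 array per group there was no replicate, so no test was run, no p-value is given, and the SD over repeated spots covers technical error within an array only. The precision of the differences is set by the number of arrays.

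The deposited labels of each array contradict each other. The title and the treatment name one group and the free-text description names the other, and the titles were followed here. If the descriptions were correct, every direction below would be the opposite. In the authors' table of normalized log2 values, 28 of the 28 members called below had the opposite sign as the columns are named, and 28 of 28 had the same sign with the columns exchanged.

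A miRNA is a short RNA cut from a hairpin precursor, first in the nucleus and then in the cytoplasm, and loaded into an Argonaute protein. The strand from the left side of the hairpin is the 5p arm and the strand from the right side is the 3p arm, and often only one of them is retained. The seed, bases 2 to 8 counted from the 5′ end, pairs with target mRNAs. miRNAs are numbered in order of discovery, and those with high numbers were mostly found by deep sequencing and are often scarce in cells. Cells release part of their miRNAs in exosomes, small vesicles of endosomal origin.

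Mature sequences came from RefSeq (GRCh38.p14), which held 250 of the 280 members by name and 31 of the 37 members that were detected. The sequences below are printed 5′ to 3′ with the seed in capitals. The first set holds the members detected on both arrays that were at least 2-fold lower on the oe-HOTTIP array, apart from miR-4646-5p.
miR-4700-5p: uCUGGGGAugaggacagugugu
miR-4648: uGUGGGACugcaaaugggag
miR-4754: aUGCGGACcuggguuagcggagu
miR-4685-5p: cCCAGGGCuuggaguggggcaagguu
miR-4749-3p: cGCCCCUCcugcccccacag
miR-4665-3p: cUCGGCCGcggcgcguagcccccgcc
miR-4787-5p: gCGGGGGUggcggcggcauccc

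The second set holds the members that were at least 2-fold higher and detected on both arrays, followed by miR-4701-3p and miR-4793-3p, which were detected on the oe-HOTTIP array alone at signals far over background.
miR-4669: uGUGUCCGggaaguggaggagg
miR-4672: uUACACAGcuggacagaggca
miR-4778-5p: aAUUCUGUaaaggaagaagagg
miR-4701-3p: aUGGGUGAuggguguggugu
miR-4793-3p: uCUGCACUgugaguuggcuggcu

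The last set holds the arms that are needed to read the comparisons of arms, seeds and host genes.
miR-4655-5p: cACCGGGGauggcagagggucg
miR-4655-3p: aCCCUCGUcagguccccgggg
miR-4793-5p: aCAUCCUGcuccacagggcagagg
miR-4667-5p: aCUGGGGAgcagaaggagaacc
miR-4728-5p: uGGGAGGGgagaggcagcaagca
miR-4763-3p: aGGCAGGGgcuggugcugggcggg

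Most members gave no signal over background in these exosomes. Detection was taken from the flag that the scanner software sets for each miRNA. It was set for 25 of 280 members (8.93%) on the oe-NC array and for 32 (11.4%) on the oe-HOTTIP array. Over all 2549 miRNAs the shares were 12.9% and 15.3%. Taken over both arrays, 20 members were detected on both, 5 only on the oe-NC array, 12 only on the oe-HOTTIP array, and 243 (86.8%) on neither, against 82.1% on neither over all miRNAs. Detection here means signal over background in this amount of RNA, and a member that was not detected may still be present.

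The 243 undetected members had mean background-subtracted intensities, in arbitrary units, from -4.52 to 5.75 on the oe-NC array and from -3.69 to 5.90 on the oe-HOTTIP array. The negative control spots averaged 3.87 ± 2.37 (SD, n = 976 spots) and 3.45 ± 2.21 (SD, n = 975 spots). None of the 243 exceeded the mean of the negative controls plus 2 SD, 8.62 on the oe-NC array and 7.87 on the oe-HOTTIP array. Among the detected members, 21 of 25 and 27 of 32 exceeded it, so that several members marked as detected lay within the range of the negative controls.

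**Figure D1:**
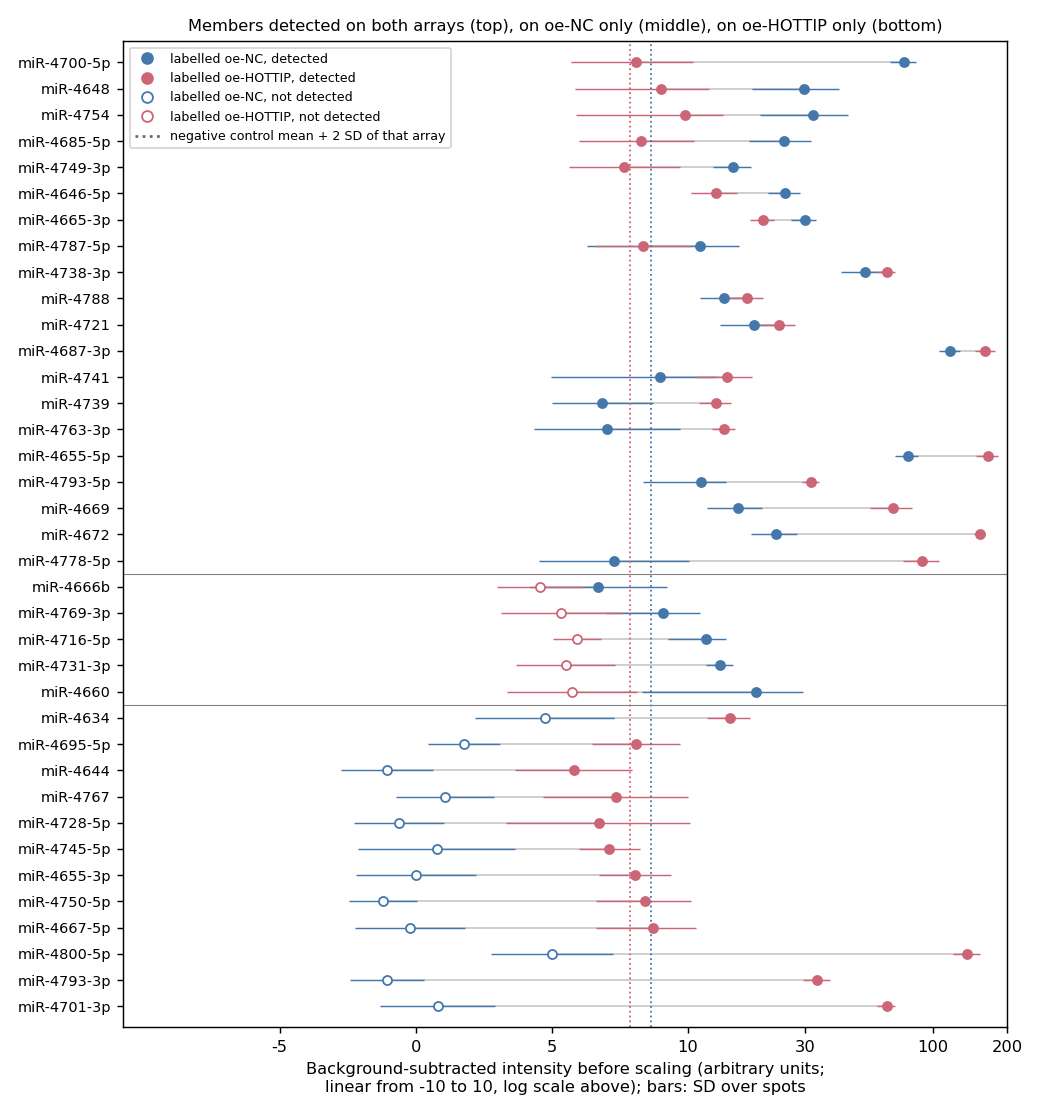
Mean background-subtracted intensity before scaling of the 37 members detected on at least 1 array, with the SD over spots, on the oe-NC array (blue) and on the oe-HOTTIP array (red). Filled points were detected and open points were not, the dotted lines stand at the negative control mean plus 2 SD of each array (8.62 and 7.87), and the axis is linear up to 10 and logarithmic above. The 20 members detected on both arrays stand at the top, and most of the members detected on 1 array alone lie near the dotted lines.

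For comparison between the arrays, the signals of each array were scaled to the 90th percentile of the 261 miRNAs detected on both, 279.9 for the oe-NC array and 439 for the oe-HOTTIP array. This took 0.65 on the log2 scale off the difference of every miRNA, because signals on the oe-HOTTIP array were brighter. Intensities below are given before scaling, and log2 differences after scaling as oe-HOTTIP minus oe-NC.

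Markers of the cell type were read as a check of the sample. Of 5 miRNAs of squamous epithelial cells, 4 were detected on both arrays and miR-203a-3p on neither. The intensities of the 5, summed before scaling, came to 514 on the oe-NC array and 618 on the oe-HOTTIP array. After scaling, the log2 differences were -0.41 for miR-205-5p, -0.62 for miR-31-5p, -0.64 for miR-200c-3p and 0.17 for miR-141-3p, so that none of the 4 was past 2-fold. Of 4 miRNAs of blood cells all 4 were detected on both arrays, with intensities that summed to 2275 and 2605 before scaling. After scaling, the log2 differences were -0.46 for miR-451a, a miRNA of red blood cells, -1.75 for miR-486-5p, -0.33 for miR-144-3p and 0.69 for miR-223-3p. Of these miR-486-5p was past 2-fold. Its 5.91 on the oe-HOTTIP array lay under the negative control mean plus 2 SD (7.87), so its difference is not exact in size. The part of RNA from blood cells in the values below was not tested.

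Among the 20 members detected on both arrays, 8 (40.0%) were at least 2-fold lower on the oe-HOTTIP array, 3 (15.0%) were at least 2-fold higher, and 9 differed by less than 2-fold. Over all 261 miRNAs detected on both arrays the shares were 21.1% lower and 18% higher. The median log2 difference of the 20 members was -0.32, against 0.02 over the 261 miRNAs, and 12 of the 20 lay below 0. The median absolute log2 difference was 1.15, against 0.70 over the 261. The 20 members form a small set, and their median moved to 0.33 without scaling between the arrays and to 0.24 when over 50% of the spots had to be well above background. The median over all miRNAs detected on both arrays moved too, to 0.67 and to 0.48.

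**Figure D2:**
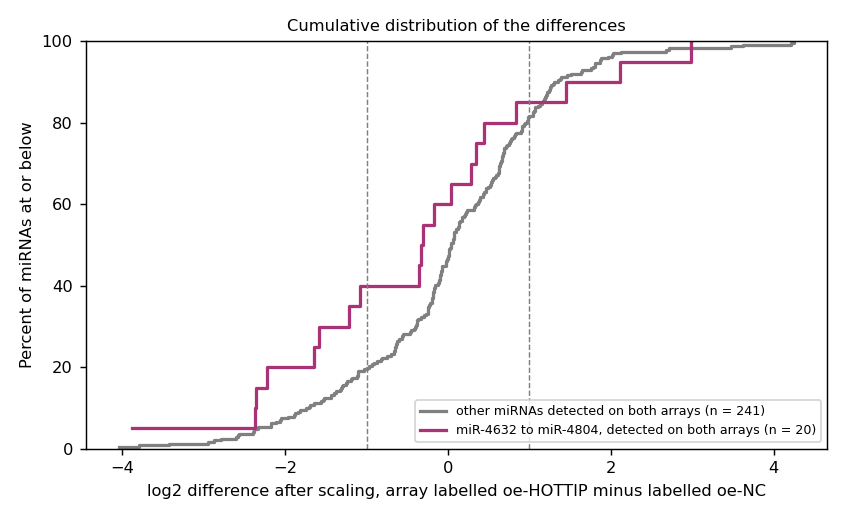
Cumulative share of miRNAs at or below each log2 difference, for the 20 members detected on both arrays (purple) and for the other 241 miRNAs detected on both arrays (grey), with dashed lines at a 2-fold difference. At or beyond the lower dashed line lie 40.0% of the members and 19.5% of the other miRNAs, and at or beyond the upper one 15.0% and 18.3%.

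The 8 lower members were miR-4700-5p, miR-4648, miR-4754, miR-4685-5p, miR-4749-3p, miR-4646-5p, miR-4665-3p and miR-4787-5p. miR-4700-5p, from a hairpin within the span of UNC119B, had an intensity of 76.0 ± 9.38 (SD, n = 17 spots) on the oe-NC array and of 8.08 ± 2.37 (SD, n = 20 spots) on the oe-HOTTIP array. Its spots ran from 54.1 to 91.1 on the first array and from 3.94 to 12.05 on the second, so that the spots did not overlap. The log2 difference was -3.88 with a spot SD of 0.46, and its probes gave -3.95 and -3.81. On the oe-HOTTIP array 1 of its 20 spots was well above background and the mean of 8.08 was just above the negative control mean plus 2 SD (7.87), so the size of the difference is not exact. This member stayed past 2-fold under each of the 12 other settings of the scanner output that gave it a value.

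miR-4648 and miR-4754 followed with nearly equal differences. miR-4648 lies within LFNG, which encodes a glycosyltransferase that modifies Notch receptors, and went from 29.8 ± 11.6 (SD, n = 20 spots) to 9.01 ± 3.15 (SD, n = 20 spots), a log2 difference of -2.37 with a spot SD of 0.76. miR-4754 went from 32.3 ± 12.6 (SD, n = 20 spots) to 9.90 ± 4.01 (SD, n = 20 spots), a log2 difference of -2.36 with a spot SD of 0.81. Both spreads were wide, and after scaling the spots of each of these 2 members overlapped between the arrays, although their probes agreed, at -2.41 and -2.34 for miR-4648 and at -2.36 and -2.35 for miR-4754. On the oe-HOTTIP array 4 of 20 spots of miR-4648 and 6 of 20 of miR-4754 were well above background, so the sizes are not exact.

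miR-4685-5p, from a hairpin within HPS1, a gene of lysosome-related organelle formation, went from 24.7 ± 6.99 (SD, n = 20 spots) to 8.27 ± 2.29 (SD, n = 20 spots), a log2 difference of -2.23. Its probes gave different intensities, 8.95 and 40.4 on the oe-NC array, and differences of -2.69 and -2.14. The dimmer probe read 2.18 on the oe-HOTTIP array, under the negative control mean (3.45), so its difference is not exact in size. miR-4749-3p, whose hairpin lies in PTOV1, went from 15.3 ± 2.69 (SD, n = 19 spots) to 7.65 ± 2.04 (SD, n = 19 spots), a log2 difference of -1.65. The 7.65 of miR-4749-3p lay under the 7.87 of the negative controls, with 1 of 19 spots well above background, so this difference is not exact in size. The scaled spots of miR-4749-3p did not overlap between the arrays, whereas those of miR-4685-5p did.

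The other 3 lower members were closer to the threshold. miR-4646-5p went from 24.9 ± 3.69 (SD, n = 20 spots) to 13.03 ± 2.79 (SD, n = 20 spots), a log2 difference of -1.58. miR-4665-3p, whose hairpin lies opposite to BRD10, went from 29.9 ± 3.51 (SD, n = 20 spots) to 20.2 ± 2.30 (SD, n = 19 spots), a log2 difference of -1.22. The scaled spots of these 2 members did not overlap between the arrays. miR-4787-5p, within DOCK3, a guanine nucleotide exchange factor of neurons, lay just inside the threshold with 11.2 ± 4.94 (SD, n = 20 spots) and 8.36 ± 1.78 (SD, n = 19 spots), a log2 difference of -1.08. Its probes differed, at -2.38 and -0.64, so that only 1 of them was past 2-fold. That probe read 2.54 on the oe-HOTTIP array, under the negative control mean (3.45).

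The 3 higher members were miR-4669, miR-4672 and miR-4778-5p. miR-4669, from a hairpin in RXRA, the gene of a retinoid receptor, went from 16.0 ± 4.10 (SD, n = 20 spots) to 68.6 ± 13.3 (SD, n = 20 spots), a log2 difference of 1.45 with a spot SD of 0.46. miR-4672, from a hairpin in AK1, the gene of an adenylate kinase, went from 22.9 ± 4.92 (SD, n = 20 spots) to 155 ± 8.05 (SD, n = 19 spots), a log2 difference of 2.11 with a spot SD of 0.32. miR-4778-5p, from a hairpin outside the span of other RefSeq genes, went from 7.28 ± 2.78 (SD, n = 20 spots) to 90.4 ± 15.0 (SD, n = 20 spots), a log2 difference of 2.98 with a spot SD of 0.60. In each of the 3 members both probes were past 2-fold in the same direction and no scaled spot of one array reached into the range of the other. The mean of miR-4778-5p on the oe-NC array lay under the negative control mean plus 2 SD (8.62), with 2 of its 20 spots well above background, so the size of its difference is not exact.

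For 10 of the 11 members past 2-fold both probes passed the threshold, and for 7 of the 11 the scaled spots did not overlap between the arrays. These counts were not made over the other miRNAs past 2-fold, so they show no trait particular to the members. The calls depended on the background correction. With normexp and an offset of 50, a correction that pulls dim signals together, 1 member (miR-4700-5p) was still at least 2-fold lower and 1 (miR-4800-5p, described below) at least 2-fold higher. Over all miRNAs, bounds included, the same correction took the counts from 115 lower and 155 higher to 26 and 8.

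**Figure D3:**
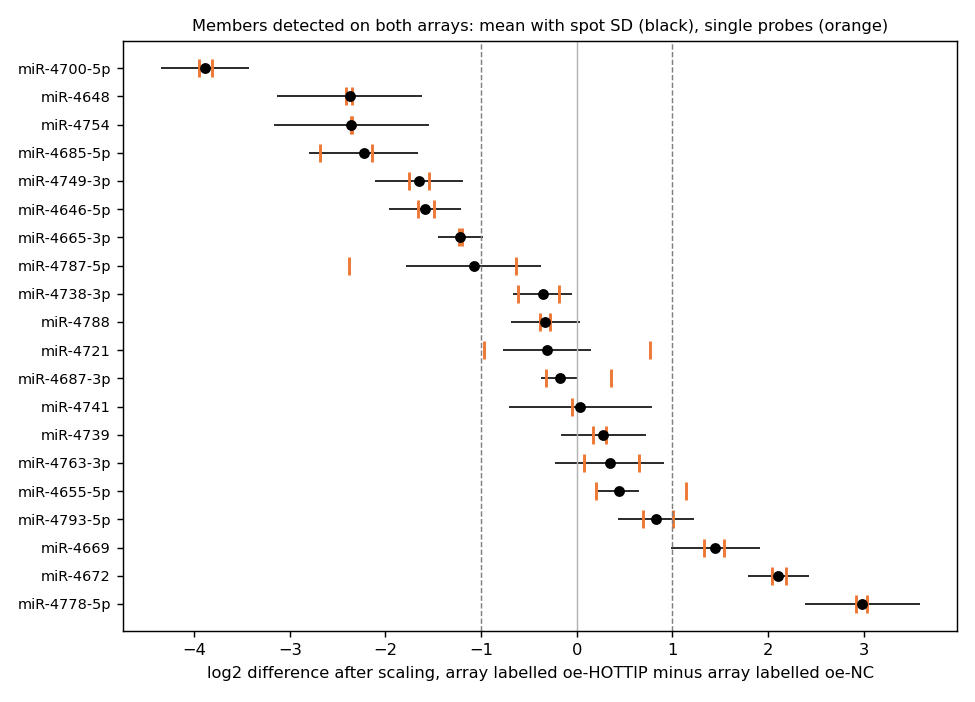
log2 difference after scaling of each of the 20 members detected on both arrays, as the mean over its probes with the spot SD (black) and for each probe with a positive signal on both arrays (orange), with dashed lines at a 2-fold difference. The probes of a member lie close together for most members and part most for miR-4787-5p (-2.38 and -0.64) and miR-4721 (-0.97 and 0.76).

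The 9 members detected on both arrays that differed by less than 2-fold were miR-4738-3p, miR-4788, miR-4721, miR-4687-3p, miR-4741, miR-4739, miR-4763-3p, miR-4655-5p and miR-4793-5p. Their log2 differences ran from -0.36 for miR-4738-3p to 0.83 for miR-4793-5p, the member just outside the threshold. The scaled spots of each of the 9 overlapped between the arrays, and for 3 of them the difference was above its own spot SD.

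miR-4687-3p lies within STIM1, the gene of a calcium sensor of the endoplasmic reticulum, and had intensities of 118 ± 11.6 (SD, n = 20 spots) and 163 ± 15.3 (SD, n = 19 spots), a log2 difference of -0.18. miR-4738-3p had 52.7 ± 10.6 (SD, n = 19 spots) and 64.7 ± 5.09 (SD, n = 19 spots), a log2 difference of -0.36. For both, every spot counted was well above background on both arrays. The probes of miR-4687-3p differed in sign, at -0.32 and 0.35.

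miR-4721, within TUFM, the gene of a mitochondrial translation elongation factor, also had probes of opposite sign, at -0.97 and 0.76, and a mean difference of -0.31. miR-4788 had a log2 difference of -0.33 from intensities of 14.0 and 17.4. For miR-4741, whose hairpin lies in RBBP8, a gene of DNA end resection, the difference was 0.03 and only 1 probe gave a value of its own (-0.05), since the other was at -0.07 on the oe-NC array. miR-4739 had a log2 difference of 0.28 from intensities of 6.84 and 13.02, of which the first lay within the range of the negative controls. The differences of miR-4721, miR-4788, miR-4741 and miR-4739 were each smaller than their spot SD.

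Of the members detected on 1 array, the 5 on the oe-NC array were miR-4660, miR-4731-3p, miR-4716-5p, miR-4769-3p and miR-4666b. Since the other array gave no detected signal, the fold was given as a bound, which depends on the level it is set against. It was set against the member's own signal on that array, or against the lowest signal detected there where that was higher. miR-4660 had 18.9 ± 10.6 (SD, n = 20 spots) and 5.74 ± 2.38 (SD, n = 20 spots), with a bound of 5.17-fold lower on the oe-HOTTIP array. Against the higher floor described below it was 4.61-fold. The bounds of miR-4731-3p, miR-4716-5p, miR-4769-3p and miR-4666b were 3.87-fold, 3.12-fold, 2.67-fold and 2.31-fold. For these 4 the intensities ran from 6.70 to 13.6 on the oe-NC array, and none of the 20 spots of miR-4666b was well above background by the flag of the software, though it was marked as detected.

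The 12 members detected only on the oe-HOTTIP array were miR-4634, miR-4644, miR-4655-3p, miR-4667-5p, miR-4695-5p, miR-4701-3p, miR-4728-5p, miR-4745-5p, miR-4750-5p, miR-4767, miR-4793-3p and miR-4800-5p. Of these, 3 stood far over background. miR-4800-5p went from 5.0 ± 2.23 (SD, n = 19 spots) to 138 ± 17.1 (SD, n = 19 spots), with a bound of 17.6-fold higher. miR-4701-3p, from a hairpin in ADCY6, the gene of an adenylyl cyclase, went from 0.797 ± 2.13 (SD, n = 19 spots) to 64.6 ± 5.60 (SD, n = 20 spots). miR-4793-3p, from a hairpin in CELSR3, the gene of a cadherin of planar cell polarity, went from -1.07 ± 1.37 (SD, n = 18 spots) to 33.6 ± 4.19 (SD, n = 19 spots). For each of these 3, every spot counted on the oe-HOTTIP array was well above background and none was on the oe-NC array.

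The other 9 had intensities from 5.80 to 14.9 on the oe-HOTTIP array and from -1.22 to 4.74 on the oe-NC array, and bounds from 2.0-fold for miR-4634 to 5.69-fold for miR-4667-5p. Among them, miR-4655-3p and miR-4695-5p had no spot well above background. With the bounds, 13 members were at least 2-fold lower and 15 at least 2-fold higher, and the background over the 457 miRNAs detected on at least 1 array was 25.2% lower and 33.9% higher. For the members detected only on the oe-NC array, the bounds rested on their own undetected signals on the oe-HOTTIP array, from 4.55 to 5.93. For those detected only on the oe-HOTTIP array, they rested on the lowest detected signal of the oe-NC array, 0.976. Where the member's own signal was higher, as for miR-4634 (4.74), they rested on that. The lowest detected signals, 0.976 and 2.43, were under the mean of the negative controls. Against a higher floor, set where 50% of miRNAs of like signal are detected (5.32 and 6.44), the counts were 12 lower and 6 higher members, and 88 and 86 over all miRNAs.

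With the higher floor, the members kept past 2-fold in the higher direction were miR-4800-5p (16.6-fold), miR-4701-3p (7.74-fold) and miR-4793-3p (4.03-fold) beside the 3 detected on both arrays. In the lower direction miR-4666b, at 1.63-fold, was the member that no longer passed. For miR-4644, miR-4655-3p, miR-4695-5p, miR-4728-5p, miR-4745-5p and miR-4767 no fold could be given against that floor.

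The arms of a hairpin were compared by their detection and by their difference between the arrays, because the level of a probe cannot be set against that of another probe. Both arms were on the array for 105 hairpins. At least 1 arm was detected for 22 of them, with only the 5p arm detected for 12, only the 3p arm for 8, and both arms on at least 1 array for miR-4655 and miR-4793. For 83 hairpins neither arm was detected. In all, 14 of 105 5p arms (13.3%) and 10 of 105 3p arms (9.52%) were detected, against 21.0% of 5p arms and 13.9% of 3p arms over the whole array. Members named without an arm were detected in 13 of 70 cases (18.6%), against 18.9% over the whole array.

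Where 1 arm was detected, the partner gave background values. The undetected 3p partners had intensities from -3.05 to 5.67 on the oe-NC array and from -3.01 to 3.18 on the oe-HOTTIP array. The undetected 5p partners ran from -3.08 to 3.87 and from -2.41 to 0.969. The 3p partner of miR-4700-5p, for example, gave 1.1 and -0.622, and the 3p partner of miR-4778-5p gave -0.457 and -0.958, so that the large differences of these hairpins were seen on 1 arm alone. No hairpin had both arms detected on both arrays, so the difference of one arm could not be set against that of the other.

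miR-4655 and miR-4793 were the exceptions. The miR-4655 hairpin lies in MAD1L1, a gene of the spindle checkpoint. Its 5p arm was detected on both arrays, at 78.6 ± 8.52 (SD, n = 20 spots) and 167 ± 17.0 (SD, n = 19 spots), a log2 difference of 0.44, with probes at 0.20 and 1.15. Its 3p arm gave 0.0121 ± 2.20 (SD, n = 20 spots) and 8.05 ± 1.32 (SD, n = 19 spots), and was detected only on the oe-HOTTIP array, where its spots ran from 4.96 to 9.95. The 3p arm thus stayed near the level of the negative controls.

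For miR-4793 both arms were clear on the oe-HOTTIP array. The 5p arm had 11.3 ± 2.99 (SD, n = 20 spots) and 31.6 ± 2.44 (SD, n = 18 spots), a log2 difference of 0.83. Its probes gave 0.69 and 1.01, and without scaling its difference was 1.48. The spots of the 3p arm ran from -4.09 to 1.71 on the oe-NC array and from 26.2 to 41.4 on the oe-HOTTIP array, with a bound of 22.0-fold, and 4.03-fold against the higher floor. After scaling, the mean of the 5p arm was under 2-fold, with 1 of its 2 probes past it. The 3p arm was over 2-fold with either floor. Whether the arms differ in their change was not tested, since 1 array per group gives no error for it.

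**Figure D4:**
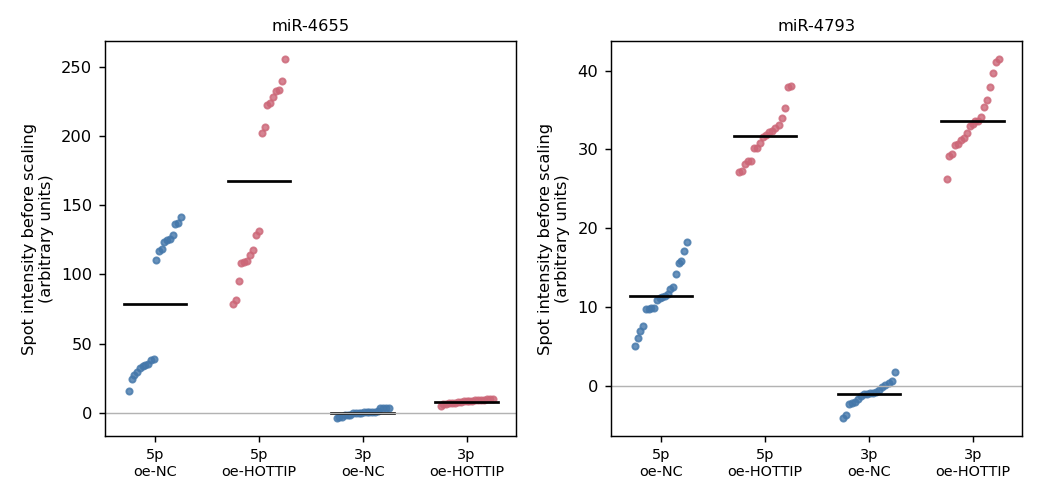
Background-subtracted intensity before scaling of each spot of the 5p and 3p arms of miR-4655 and miR-4793 on the oe-NC array (blue) and on the oe-HOTTIP array (red), with the mean over probes as a black line. The 5p spots of miR-4655 fall into a dimmer and a brighter set on both arrays, which are its probes, and the 3p spots of miR-4793 lie from -4.09 to 1.71 on the first array and from 26.2 to 41.4 on the second.

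Several members come from loci known in cancer. The miR-4728 hairpin lies within ERBB2, the gene of the HER2 receptor tyrosine kinase, on the same strand. miR-4728-5p gave -0.609 ± 1.66 (SD, n = 18 spots) on the oe-NC array and 6.73 ± 3.44 (SD, n = 20 spots) on the oe-HOTTIP array, where 5 of its 20 spots were well above background. Its bound was 4.40-fold higher, no fold could be given against the higher floor, and its probes differed, at 1.28 and 12.2 on that array. miR-4728-3p gave 0.795 and -0.776 and was detected on neither array.

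miR-4673, whose hairpin lies within NOTCH1, the gene of a Notch receptor, gave -1.63 and -1.75 and was detected on neither array. miR-4674, from a hairpin on the same chromosome arm, gave -4.52 and -2.63 and was not detected either. The miR-4763 hairpin lies in MIRLET7BHG, the host transcript of let-7b, a miRNA that restrains proliferation. Its 3p arm was detected on both arrays at 7.02 ± 2.68 (SD, n = 20 spots) and 14.0 ± 1.52 (SD, n = 17 spots), a log2 difference of 0.34 with a spot SD of 0.57, while its 5p arm gave -3.04 and -2.27 and was not detected. The 7.02 lay under the negative control mean plus 2 SD (8.62), with 2 of 20 spots well above background, so the difference is not exact in size. The probes of the 3p arm gave 0.65 and 0.08, and summed intensity gave a log2 difference of 1.12. Of these loci, none had a member past 2-fold that also stayed past it against the higher floor.

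Positions in RefSeq (GRCh38.p14) were found for 156 hairpins of members, on 22 chromosomes. Of these, 125 lay inside the span of another gene, and 82 (52.6%) inside a protein-coding gene on the same strand. Among the 26 hairpins with a position and a detected member, 15 (57.7%) lay inside a protein-coding gene on the same strand. For some host genes, among them HPS1, UNC119B and ADCY6, the strand was not given, and their hairpins were left out of the same-strand counts. Whether a hairpin lay in an exon or an intron was not analysed here. The mature miR-4700-5p lies at chr12:120723202-120723223 (plus strand), miR-4778-5p at chr2:66358297-66358318 (minus strand), miR-4672 at chr9:127869425-127869445 (minus strand) and miR-4701-3p at chr12:48771980-48771999 (minus strand). The host genes were not measured on this array.

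The detected members were rich in G. Over the 31 detected members with a sequence the median share of G was 45.5%, against 23.8% over the 219 undetected members with a sequence. Over all miRNAs with a sequence the medians were 38.1% for 387 detected and 26.1% for 1861 undetected miRNAs, so the same direction was seen across the array. The share of G and C together had medians of 65.4% and 50% in detected and undetected members. The length had a median of 22 bases in both. These are descriptions over sequences and share the array, and the part of base composition in the detection was not tested.

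**Figure D5:**
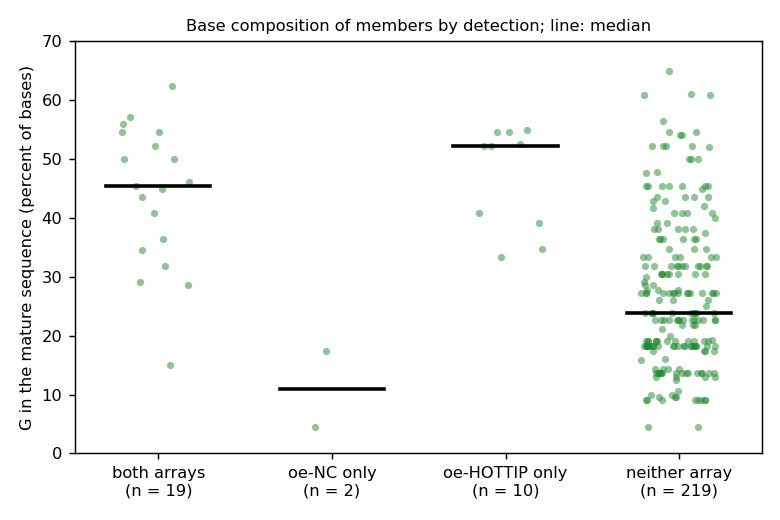
Share of G in the mature sequence of each of the 250 members with a RefSeq sequence, by detection, with the median as a black line. Members detected on both arrays (n = 19) and on the oe-HOTTIP array alone (n = 10) have medians of 45.5% and 52.2%, and members detected on neither (n = 219) have 23.8%. The 2 members with a sequence that were detected on the oe-NC array alone have 4.55% and 17.4%.

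The members with low G content formed a small set among those detected. The 2 members with a sequence that were detected on the oe-NC array alone, miR-4716-5p (4.55% G) and miR-4666b (17.4% G), were both under 30% G. The others detected on that array alone, miR-4660, miR-4731-3p and miR-4769-3p, had no sequence. None of the 10 members with a sequence that were detected on the oe-HOTTIP array alone was under 30% G, and 3 of the 19 detected on both arrays were. Of the 219 members with a sequence detected on neither array, 136 were. These counts were not made over the other miRNAs of the array. Over the members past 2-fold, the median share of G was 43.5% in 9 lower members and 52.2% in 13 higher members with a sequence. These medians were not taken over the other miRNAs past 2-fold, so they show no trait particular to the members.

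Short sequence elements were counted in the mature strand. The letters GGAG and CCCU are known from work on the sorting of miRNAs into exosomes, and GGGG was added as a run of G. GGAG was found in 13 of 31 detected members (41.9%) and in 32 of 219 undetected members (14.6%), and in 15.9% of all 2248 miRNAs with a sequence. GGGG was found in 13 (41.9%) and 15 (6.85%), and in 12% of all. CCCU was found in 4 (12.9%) and 22 (10.05%), and in 12% of all. A sequence can hold GGAG and GGGG together, as miR-4728-5p and miR-4685-5p do, and both are made mostly or wholly of G. The part of the share of G in these counts was not tested. Over all detected miRNAs of the array, GGAG was found in 32.3%, GGGG in 26.4% and CCCU in 10.3%, and a match of letters does not show that a protein binds there.

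Few members shared a seed. The 250 members with a sequence had 243 seeds, of which 7 were held by more than 1 member. Among detected members 1 seed was shared, CUGGGGA of miR-4700-5p and miR-4667-5p. These 2 members went in opposite directions, since miR-4700-5p was lower by 3.88 on the log2 scale and miR-4667-5p, at -0.22 ± 2.01 (SD, n = 19 spots) and 8.71 ± 2.10 (SD, n = 20 spots), was detected only on the oe-HOTTIP array. The bound of miR-4667-5p, 5.69-fold, was 1.04-fold against the higher floor.

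Outside the range, 2 further pairs of detected miRNAs shared a seed. The seed GGGAGGG of miR-4728-5p is also that of miR-6785-5p, which was detected on both arrays at 12 and 44.5, a log2 difference of 1.24. The seed GAGUGGG of miR-4745-5p is also that of miR-4481, and both were detected only on the oe-HOTTIP array. Sequences were also searched for longer matches, since a probe can bind a similar miRNA. miR-4666b shared a run of 14 bases with miR-4666a-5p, miR-4655-5p a run of 13 with miR-5010-5p, and miR-4749-3p a run of 12 with miR-4728-3p, and none of these 3 partners was detected. No other detected member with a sequence shared 12 bases or more with another miRNA of the array.

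Neighbouring ranges of numbers were read in the same way. Among 142 miRNAs numbered from 4417 to 4540, 21 were detected on both arrays, of which 6 were at least 2-fold lower and 8 at least 2-fold higher. Among 189 miRNAs numbered from 5000 to 6699, 22 were detected on both arrays, of which 7 were lower and 3 higher. The median log2 differences were 0.53 and -0.06, against -0.32 for the 20 members. The share of miRNAs detected on at least 1 array was 13.2% for the members, 23.9% for the first of these ranges and 18.0% for the second, and these differences were not tested.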

How the data were processed

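The authors deposited, for each array, the output of Agilent Feature Extraction with a background-subtracted intensity per spot, median spot and local background intensities, an intensity summed per miRNA, and detection and outlier flags. The scanner output names version 11.5.1.1 and the labels 10.10. A further deposited table holds normalized log2 values made in GeneSpring with a 90th percentile normalization according to the methods.

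From the scanner output, control spots and outlier spots were left out (217 of 5600 member spots, 3.88%, on the oe-NC array and 162, 2.89%, on the other). Spots were averaged per probe and 2 to 3 probes per member. The spot SD was pooled within probes, and relative SDs of both arrays were combined on the log2 scale. A 2-fold difference, as in the methods, was the threshold.

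The members, lists and rules were chosen with earlier results of these data known. Named were members detected on at least 1 array, their partner arms, and miR-4728, miR-4673, miR-4674 and miR-4763 for their loci. Alternatives were other scalings (all miRNAs, 75th percentile, median, quantile, spike-ins, none), summed intensity, brightest probe, outliers kept, normexp with and without an offset of 50, other detection rules, a higher floor and the authors' table. The code for the calls was run on simulated data made from the oe-NC array. Only bright miRNAs were changed there, and both simulated arrays had the same miRNAs detected. The bounds and the calls of dim members were therefore not checked by it. Tools were limma 3.58.1 in R 4.3.3 for normexp, and pandas 2.3.3, numpy 2.4.6 and matplotlib 3.10.9 in Python 3.11.15.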

Additional observations from a re-analysis of the deposited data

How the results depend on the processing

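No paired analysis was possible because there was only 1 array a group. As reported, 13 members were lower and 15 higher, and the median log2 difference was -0.32. Over the 5 other scalings of the scanner output 13 were lower in each and 14 or 15 higher. Without scaling 6 were lower, 17 higher and the median was 0.33, while over all miRNAs 63 were lower, 223 higher and the median was 0.67. With the brightest probe 6 were higher, and with normexp and no offset 6. With an offset of 50 the counts were 1 and 1, and with the higher floor 6 were higher. Over all miRNAs the higher count fell too under these settings, from 155 as reported to 95, 53, 8 and 86 in that order. Counting miRNAs detected on both arrays alone gave 8 lower and 3 higher members, and 55 and 47 over all miRNAs. Requiring over 50% of the spots to be well above background left 17 members detected on the oe-HOTTIP array, 7 lower, 7 higher and a median of 0.24. Over all miRNAs that rule gave 39 lower and 106 higher. Requiring a signal above the negative control mean plus 2 SD, chosen after seeing the data, gave 8 lower and 7 higher members. Over all miRNAs it gave 53 and 80. The authors' table gave 7 lower, 12 higher and a median of 0.44 as its columns are named, and 12 lower and 7 higher with its columns exchanged. Over all miRNAs as named it gave 103 lower and 104 higher. The cause of these changes was not tested, except that fewer members enter where detection is stricter. Of 426 values of single members under the alternatives, 306 moved by less than their spot SD and 120 moved by more. Values without a difference or a bound were left out. No called member detected on both arrays changed its direction in the scanner output. For members detected on 1 array the direction was fixed by the detection, so a change could not be read. The comparison of arms within a hairpin gave no value under any alternative, because no hairpin had both arms detected on both arrays. None of the 243 members detected on neither array exceeded the negative control mean plus 2 SD. Among the detected members, 21 of 25 on the oe-NC array and 27 of 32 on the oe-HOTTIP array did.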
